A study of Danio rerio with 3 samples.

Results

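Collagen chains were chosen as the rows of the deposited expression table whose symbol has the form of a collagen chain name (col, a type number, a, a chain number and at most 1 letter), which gave 35 of 25961 genes. They fall into 13 fibrillar chains, 3 chains of type IV, the network collagen of basement membranes, 2 chains of type VI and 17 chains of other types. The libraries were made from zebrafish embryos (Danio rerio, Tuebingen strain) injected at the 1-cell stage with a morpholino, an antisense oligomer that transiently blocks translation or splicing of its target RNA, and harvested at 24 hours post fertilization. The groups were a standard control morpholino at 3 ng, an hnrnpaba morpholino at 3 ng and an hnrnpaba morpholino at 6 ng, so all embryos were injected and no uninjected group was given. hnrnpaba is a zebrafish counterpart of human HNRNPAB, an RNA-binding protein. Each group was 1 library from 30 pooled whole embryos, so differences could not be checked against replicates, p-values are not given, and the values describe these 3 libraries. The control received the lower mass, so mass and target differ together at 6 ng.

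Collagens are secreted proteins of 3 chains wound into a helix, and each chain is a run of glycine-led repeats. Fibrillar chains (types I, II, V, XI and relatives) form the banded fibrils of skin, tendon, cartilage and the notochord sheath, and type IV forms the meshwork under epithelia and around vessels and muscle. Type VI forms beaded filaments around muscle and other cells, and FACIT collagens such as types IX, XII and XIV sit on the surface of fibrils. In the embryo the notochord, the epidermis and mesenchyme are known sources of these chains, and a helix needs its chains in set proportions and hydroxylated in the endoplasmic reticulum before it can be secreted.

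Levels are FPKM (fragments per kilobase and per unit of library size), a unit scaled by gene length, so levels can be compared between chains. Library totals recovered from the steps of the FPKM values were 14589056 fragments in the control library, 17748075 in the 3 ng library and 13557636 in the 6 ng library. The level of the target hnrnpaba was 442, 459 and 342 FPKM in the control, 3 ng and 6 ng libraries, and values below are given in that order. The mode of action of the morpholino was not given in the sources used here. Its target's transcript therefore does not check the labels. Each fold divides 2 FPKM values and carries in brackets a 95% exact interval from the fragments, which covers counting error only. A gene that differed at least 2-fold on the scale of log2(FPKM + 1) was called higher or lower. The added 1, the pseudocount, shrinks folds at low FPKM, so some genes past 2-fold on FPKM itself were not called. Genes averaging at least 1 FPKM over the 3 libraries entered the counts. This left 16429 genes in all and 27 of the 35 collagen chains, of which each was at 1 FPKM or more in all 3 libraries. The other 8, with at most 0.910 FPKM in any library, were col27a1b, col17a1a, col5a2b, col10a1b, col28a1b, col28a2b, col8a1b and col10a1a. col8a1b and col10a1a were listed at 0 in the control and at 3 ng, with 1 fragment each at 6 ng. A further 24 rows are collagen chains by their description or by a table of gene names but carry no such symbol. They are not members, and are named below only as partners of a member and called chains without a symbol.

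The collagen transcripts of the control were dominated by a few chains. col2a1a, the type II chain of cartilage and notochord sheath (ENSDARG00000069093, chromosome 8, 21195420 to 21219473, plus strand, genome build not given), was the most abundant at 409.9 FPKM. It was followed by the type I chain col1a1a at 320.0, the type IX chain col9a1b at 251, and the type I chains col1a2 at 207 and col1a1b at 179.9 FPKM. These 5 chains made up 54.9% of the summed FPKM of the 35 chains, called the collagen FPKM sum here and below. That sum was 2494 FPKM in the control, 2686 at 3 ng and 3042 at 6 ng. With the 24 chains without a symbol it was 2981, 3105 and 3497 FPKM. Ranks are likewise among the 35 chains only. col2a1a led in all 3 libraries, while the order of the chains behind it differed. col1a2 stood 4th in the control, 9th at 3 ng and 10th at 6 ng, and col1a1b stood 5th, 10th and 11th. col8a1a was the reverse, at 10th, 7th and 4th.

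**Figure D1:**
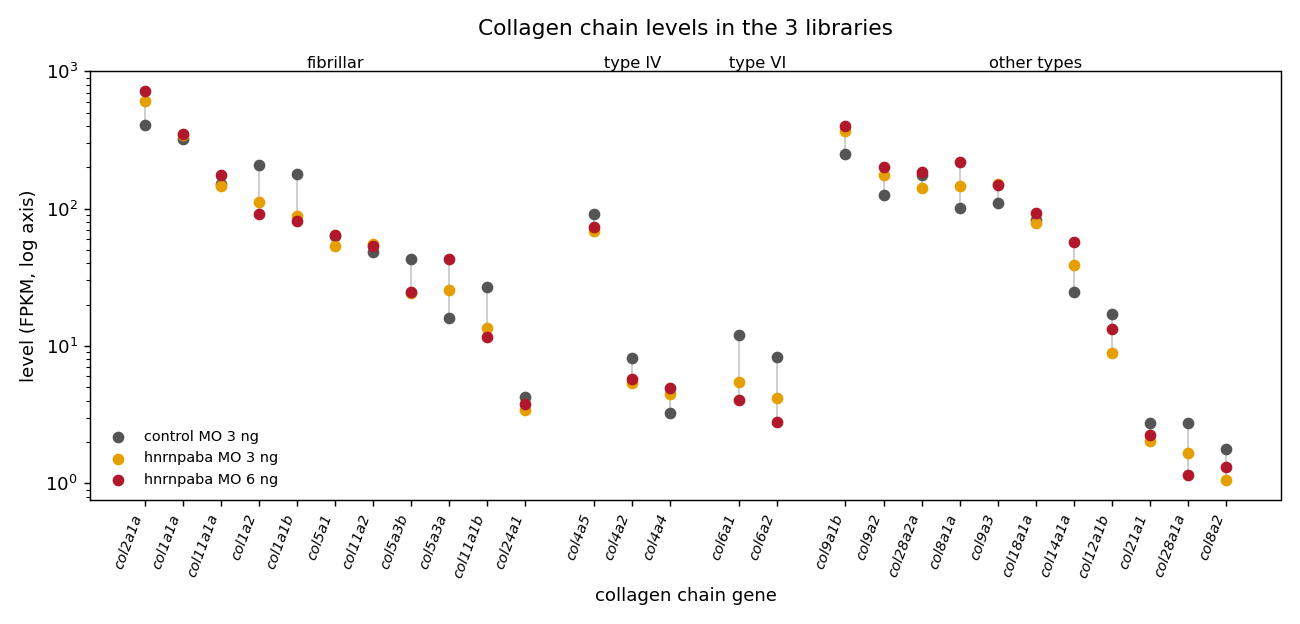
Level (FPKM, log axis) of the 27 collagen chains with a mean of 1 FPKM or more, grouped by class and ordered by mean level, with 1 point per library and a grey line over their range. col2a1a lies at 409.9, 612 and 724 FPKM, while col1a2 and col1a1b lie highest in the control and both type VI chains lie lowest at 6 ng.

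At 3 ng, the type I chains col1a1b and col1a2, the type XI chain col11a1b, the FACIT chain col12a1b and both type VI chains stood near 0.5-fold the control level, while the type II, V, VIII, IX and XIV chains col2a1a, col5a3a, col8a1a, col9a1b and col14a1a stood near 1.5-fold. Of the 27 chains counted, 0 were at least 2-fold higher, against 3.68% of all genes counted, and 2 (7.41%) were at least 2-fold lower, against 2.20%. The 2 were col1a1b, with a log2 difference of -1.01, and col6a1, with -1.0025, so both lay at the limit. Neither stayed past it with a pseudocount of 5 FPKM or once the median of genes of similar model length was subtracted. Counting intervals excluded a fold of 1 in 26 of the 27 chains, with 10 above and 16 below the control. The same share over all genes was not computed, and these intervals are narrow for genes with many fragments. The 26 therefore does not set these chains apart from other genes. The median log2 difference of the 27 was -0.25, beside 0.02 over all genes counted.

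At 6 ng the chains spread further apart. Of the 27 chains, 3 (11.1%) were at least 2-fold higher, against 6.28% of all genes counted, and 5 (18.5%) were at least 2-fold lower, against 4.53%. With like-length medians subtracted, 2 chains were higher, against 4.74% of all genes counted, and 4 were lower, against 5.51%. The higher chains were col5a3a, col14a1a and col8a1a, and the lower chains were col6a1, col6a2, col1a2, col1a1b and col11a1b. The median of the 27 was 0.05, beside 0.08 over all genes counted, and it became -0.04 when the libraries were rescaled by the median ratio. The 27 chains thus lay on both sides of the control, 14 above and 13 below. Over all 16429 genes counted, 9208 were above and 7221 below. Between 3 and 6 ng, 0 of 27 chains were 2-fold higher and 0 were 2-fold lower, against 1.11% and 0.992% of all genes counted. In that comparison, which does not use the control, the median of the 27 was 0.12.

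**Figure D2:**
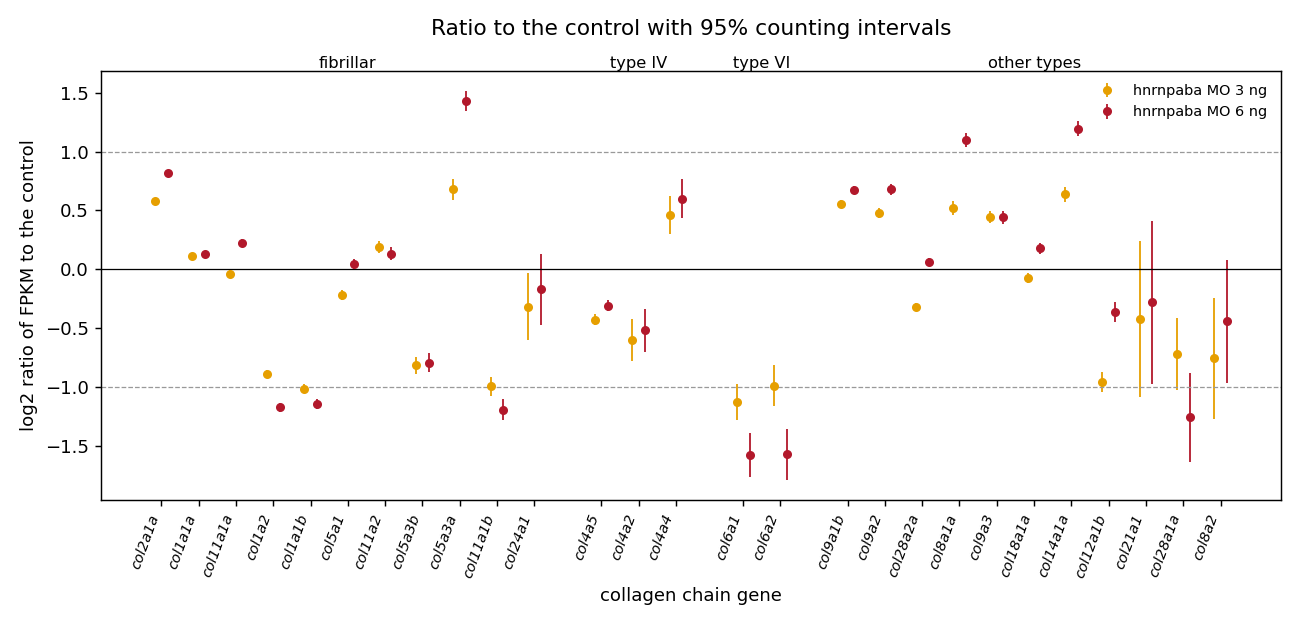
Log2 ratio of FPKM to the control, without a pseudocount, for the same 27 chains at 3 ng and 6 ng, with bars for the 95% counting interval and dashed lines at 2-fold. Both doses use the same control library, and the chains spread from col6a1 and col6a2 near -1.6 at 6 ng to col5a3a at 1.43.

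Transcript length is a property that these genes share, since 26 of the 27 chains counted had a recovered gene model longer than the median of all genes counted, 2232 bases. Over all genes, long models were lower at both doses. The 3 highest of 20 bins of length held 20 of the 27 chains. At 3 ng the median log2 difference of all genes in these bins was -0.09, -0.10 and -0.19, beside 0.19 in the lowest bin. At 6 ng it was -0.04, -0.07 and -0.16, beside 0.23. With these bin medians subtracted, the median of the 27 chains at 3 ng was -0.23. Whether length has a part in the collagen values was not tested further.

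The fibrillar chains lay on both sides of the control. Type I collagen, the main fibril of skin and bone, is built from an alpha 1 and an alpha 2 chain, and zebrafish carry an alpha 1 pair, col1a1a and col1a1b. col1a1a (ENSDARG00000012405) stood at 320.0, 347 and 349 FPKM and differed little between libraries, with folds of 1.08 (1.07 to 1.10) and 1.09 (1.07 to 1.11). col1a1b (ENSDARG00000035809, chromosome 12, 3095699 to 3133483, minus strand) stood at 179.9, 89.0 and 81.4 FPKM. It was clearly highest in the control and similar at both doses, with folds of 0.495 (0.482 to 0.508) and 0.453 (0.439 to 0.466). col1a2 (ENSDARG00000020007), the alpha 2 chain, stood at 207, 112 and 91.9 FPKM, with folds of 0.540 (0.527 to 0.553) and 0.443 (0.431 to 0.456), so it was low with col1a1b and not with col1a1a.

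The balance between type I chains differed between the libraries accordingly. The ratio of col1a2 to the sum of col1a1a and col1a1b was 0.415 in the control, 0.257 at 3 ng and 0.213 at 6 ng. The ratio of col1a1b to col1a1a was 0.562, 0.257 and 0.233. Type I chains as a whole made up 28.4% of the collagen FPKM sum in the control, 20.4% at 3 ng and 17.2% at 6 ng. In whole embryos fewer cells of a type and less RNA per cell cannot be told apart, here and in every value below.

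Type II collagen differed in the other direction. col2a1a stood at 409.9, 612 and 724 FPKM, lowest in the control and highest at 6 ng, with folds of 1.49 (1.48 to 1.51) and 1.77 (1.74 to 1.79). Its paralog col2a1b, a chain without a symbol, stood at 164, 152 and 155 FPKM and was slightly lower in both morphant libraries, with folds of 0.923 (0.901 to 0.946) and 0.946 (0.922 to 0.971). The ratio of col2a1a to col2a1b was 2.50 in the control, 4.04 at 3 ng and 4.66 at 6 ng. Against the type I chain col1a1a, col2a1a was 1.28 times as abundant in the control and 2.07 times at 6 ng.

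Types V and XI nucleate and limit the width of type I and type II fibrils. col11a1a, the more abundant alpha 1 chain of type XI, stood at 152, 148 and 177 FPKM, and col11a2, the alpha 2 chain, at 48.7, 55.6 and 53.4 FPKM, with folds between 0.973 and 1.17 of the control. col11a1b stood at 26.8, 13.4 and 11.7 FPKM, highest in the control, with folds of 0.501 (0.474 to 0.530) and 0.437 (0.410 to 0.466). Its 6 ng value was past 2-fold under 5 of 7 alternative settings and within it after the like-length median was subtracted and with a pseudocount of 5 FPKM. The ratio of col11a1a to col11a1b was 5.66, 10.98 and 15.1.

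col5a1, the type V alpha 1 chain, was nearly level at 62.8, 53.9 and 64.9 FPKM. The type V alpha 3 paralogs differed in order between the libraries. col5a3a (ENSDARG00000098294, plus strand of chromosome 3, 53773256 to 53919463) was at 15.9, 25.4 and 42.8 FPKM, with folds of 1.60 (1.51 to 1.70) and 2.70 (2.55 to 2.86), the highest fold of any counted chain at 6 ng. col5a3b stood at 43.1, 24.5 and 24.8 FPKM, with folds of 0.568 (0.539 to 0.598) and 0.577 (0.545 to 0.610). col5a3a was thus below col5a3b in the control, level with it at 3 ng and above it at 6 ng, with ratios of 0.368, 1.04 and 1.72. The partner chain col5a2a, without a symbol, stood at 77.7, 73.6 and 94.96 FPKM. The member row of col24a1, a minor fibrillar chain, was low in all libraries, at 4.26, 3.42 and 3.79 FPKM. A second row named col24a1, without a symbol, stood higher at 22.2, 18.1 and 17.6 FPKM, from 128, 127 and 94 fragments.

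The 11 fibrillar chains counted had a median log2 difference of -0.22 at 3 ng and 0.05 at 6 ng. At 3 ng 1 (9.09%) was lower, against 2.20% of all genes counted, and 0 were higher, against 3.68%. At 6 ng 3 (27.3%) were lower, against 4.53%, and 1 (9.09%) was higher, against 6.28%. The 6 ng median was -0.04 with libraries rescaled by the median ratio, so the sign of the class median there depended on the scaling.

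**Figure D3:**
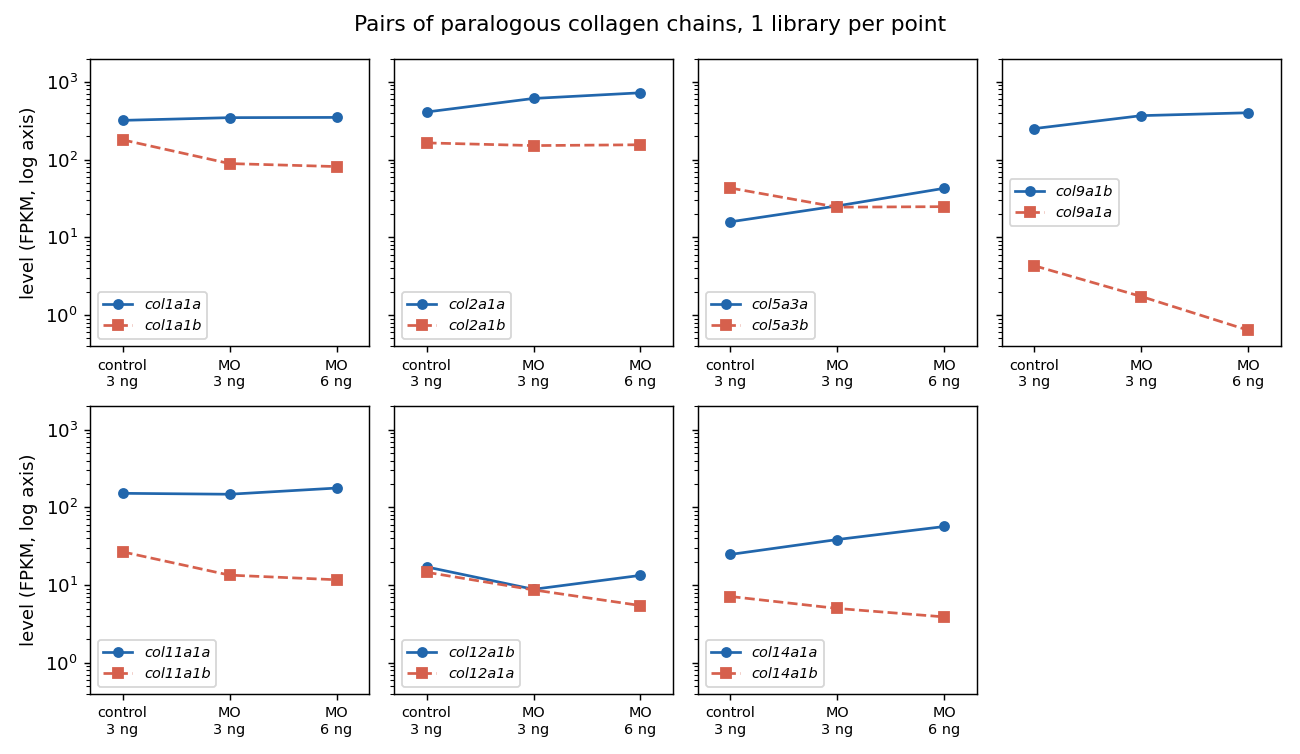
Level (FPKM, log axis, the same in each panel) of 7 pairs of paralogous collagen chains in the 3 libraries, with 1 library per point, where MO is the hnrnpaba morpholino. col5a3a and col5a3b cross between control and 6 ng, col1a1b and col11a1b lie lower in the morphant libraries beside nearly level paralogs, and col9a1a lies lower in each morphant library while col9a1b lies higher.

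Members of a pair differed unequally from the control. In 6 of the 7 pairs drawn (all but col12a1) one paralog was above and the other below the control at 6 ng. The pairs were chosen after their values were seen, and the same share over other gene pairs was not computed. Pairs not drawn include col23a1a and col23a1b, chains without a symbol, both below the control at 6 ng. Their folds there were 0.557 (0.442 to 0.699) and 0.241 (0.162 to 0.350). Gene-level FPKM cannot show how reads of similar paralogs were divided.

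Type IV chains are encoded in pairs that lie head to head in the table's coordinates, an arrangement known from other vertebrates. col4a5 (chromosome 7, 51103232 to 51194430, plus strand) starts 752 bases from col4a6 (50920437 to 51102479, minus strand), a chain without a symbol. col4a5 stood at 91.9, 68.3 and 74.0 FPKM and was highest in the control, with folds of 0.743 (0.721 to 0.767) and 0.806 (0.780 to 0.832). col4a6 stood at 44.1, 33.0 and 37.2 FPKM, with folds of 0.748 (0.719 to 0.777) and 0.844 (0.811 to 0.879). The ratio of col4a5 to col4a6 was 2.08, 2.07 and 1.99, so these neighbours kept nearly the same proportion in all 3 libraries.

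col4a2 (chromosome 9, 8761099 to 8882901, plus strand) and col4a1 (8634229 to 8670158, minus strand, without a symbol) encode the chains of the most widespread type IV network, and lie 90940 bases apart with 1 other gene of the table between them. col4a2 stood at 8.22, 5.42 and 5.73 FPKM, with folds of 0.660 (0.584 to 0.745) and 0.697 (0.612 to 0.793), and col4a1 stood at 9.15, 6.28 and 7.65 FPKM. Both were highest in the control.

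The third pair was not highest in the control. col4a4 (chromosome 15, 35951888 to 36055401, minus strand) overlaps the start of col4a3, without a symbol, by 538 bases. col4a4 stood at 3.25, 4.47 and 4.93 FPKM and was lowest in the control, with folds of 1.38 (1.23 to 1.54) and 1.52 (1.35 to 1.70). col4a3 was nearly level at 4.57, 4.83 and 4.84 FPKM, so the ratio of col4a3 to col4a4 was 1.41, 1.08 and 0.981. Reads from the overlapping stretch cannot be assigned with certainty. No type IV chain was past 2-fold at either dose. Over all genes counted, 3.68% were higher and 2.20% lower at 3 ng, and 6.28% and 4.53% at 6 ng. At such shares so few chains may hold none. The median log2 difference of the 3 members was -0.42 at 3 ng and -0.31 at 6 ng.

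Both type VI chains were lower, in the order of the dose. col6a1 (ENSDARG00000074908, chromosome 11, 33996526 to 34065718, minus strand) stood at 11.98, 5.48 and 4.02 FPKM, from 985, 548 and 307 fragments. It was at 0.457-fold the control (0.411 to 0.508) at 3 ng and 0.335-fold (0.294 to 0.382) at 6 ng. col6a2 (33921358 to 33960318, on the same strand, with no other gene of the table between them) stood at 8.35, 4.21 and 2.81 FPKM, with folds of 0.504 (0.447 to 0.568) and 0.336 (0.289 to 0.391).

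A type VI helix joins an alpha 1, an alpha 2 and a further chain, and the ratio of col6a1 to col6a2 was 1.43, 1.30 and 1.43. Between the doses, col6a1 stood at 0.733-fold (0.636 to 0.845) and col6a2 at 0.668-fold (0.567 to 0.785) at 6 ng of the 3 ng level. With a pseudocount of 5 FPKM neither chain was past 2-fold at 6 ng, at -0.91 and -0.77. Among the candidate further chains, all without a symbol, col6a3 stood at 1.94, 1.50 and 1.01 FPKM, and col6a4a stood at 6.07, 1.71 and 1.46 FPKM with folds of 0.282 (0.245 to 0.324) and 0.240 (0.203 to 0.283). The 4 type VI rows counted, members or not, were thus below the control at both doses. Over all 16429 genes counted, 7895 were below the control at 3 ng and 7221 at 6 ng.

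Among the other types, the FACIT chains of type IX coat type II fibrils. col9a1b (ENSDARG00000031483) stood at 251, 368 and 401 FPKM, with folds of 1.47 (1.43 to 1.50) and 1.60 (1.56 to 1.64). col9a2 stood at 127, 177 and 203 FPKM, with folds of 1.40 (1.35 to 1.44) and 1.60 (1.55 to 1.65). col9a3 stood at 110.3, 150.3 and 149.7 FPKM, with folds of 1.36 (1.32 to 1.41) and 1.36 (1.31 to 1.41).

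All 3 type IX members were thus lowest in the control. The partner col9a1a, without a symbol, did the reverse at a far lower level, with 4.31, 1.73 and 0.637 FPKM from 182, 89 and 25 fragments, and a fold of 0.148 (0.0932 to 0.225) at 6 ng. The neighbour of col9a2 on chromosome 19, col16a1, whose 3′ end lies 6203 bases away, was mildly higher at 17.4, 20.8 and 22.8 FPKM.

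col8a1a, a short-chain network collagen needed in zebrafish for a straight notochord (ENSDARG00000077403, plus strand of chromosome 9, 30090656 to 30102778), was at 101, 145 and 217 FPKM. Its folds were 1.43 (1.37 to 1.50) and 2.14 (2.06 to 2.24), and at 6 ng it was 1.50-fold (1.44 to 1.55) above its 3 ng level. With like-length medians subtracted its 6 ng difference was 0.95, just within 2-fold. The type VIII alpha 2 chain col8a2 was low, at 1.78, 1.05 and 1.31 FPKM.

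col2a1a, col8a1a and the 3 type IX members together made up 40.1% of the collagen FPKM sum in the control, 54.1% at 3 ng and 55.7% at 6 ng. These chains were put together with their higher values known, so the larger share follows from that choice. Their relatives col2a1b, col9a1a and col8a2 were below the control at both doses. For col8a2 the 6 ng fold was 0.736 (0.510 to 1.05), so its counting interval included 1 there. The summed level of notochord markers was higher in the morphant libraries. All 10 markers had an FPKM value above 0 in each library, and 8 were counted. Of these 8, 5 were at least 2-fold higher at each dose, against 3.68% and 6.28% of all genes counted. At either dose 0 were lower, against 2.20% and 4.53%. The summed level of the list was 161, 291 and 353 FPKM. The notochord transcription factor gene tbxta stood at 19.3, 44.6 and 52.7 FPKM, ntd5 at 53.9, 131 and 168 FPKM, and cav1, an abundant caveolae gene of this list, at 58.5, 59.7 and 76.9 FPKM. Not every marker was higher, since foxa2 stood at 7.93, 8.78 and 6.70 FPKM and chrd, below the counting limit, at 1.11, 0.729 and 0.906 FPKM. The part of notochord amount in the values of these chains was not tested.

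col14a1a, a FACIT chain (ENSDARG00000005762, plus strand of chromosome 16, 14684916 to 15050842), was at 24.8, 38.6 and 56.8 FPKM. It was higher at each step, with folds of 1.56 (1.49 to 1.63) and 2.29 (2.19 to 2.39), and at 6 ng it was 1.47-fold (1.42 to 1.52) its 3 ng level. Its paralog col14a1b, without a symbol, stood at 7.14, 5.01 and 3.90 FPKM. col14a1a is known from the zebrafish epidermis, and the 12 epidermis and periderm markers had a summed level of 9993, 11281 and 14343 FPKM, with krt4 at 6933, 7579 and 9187 FPKM and krt5 at 1392, 1712 and 2457 FPKM. krt4 thus made up most of that sum, and other markers of the list were highest in the control, with krt91 at 85.9, 51.4 and 70.7 FPKM, ppl at 85.9, 64.8 and 68.96 FPKM and evpla at 26.2, 22.7 and 25.2 FPKM. Of these 12 markers 0 were 2-fold higher at 3 ng, against 3.68% of all genes counted, and 1 (8.33%) at 6 ng, against 6.28%. At the 2 doses 0 were lower, against 2.20% and 4.53%. The part of epidermis amount in the col14a1a value was not tested.

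col12a1b, a FACIT chain of muscle fascia and tendon, had no dose order, at 17.2, 8.83 and 13.3 FPKM, with folds of 0.515 (0.485 to 0.547) and 0.778 (0.734 to 0.824). Its paralog col12a1a, without a symbol, was lower at each step, at 14.6, 8.68 and 5.46 FPKM. col18a1a, a basement membrane proteoglycan chain and the precursor of endostatin, was nearly level at 82.8, 78.5 and 93.6 FPKM. col28a2a, a type XXVIII chain, stood at 176, 141 and 184 FPKM and was lowest at 3 ng. Its relative col28a1a was low in each library and lower at each dose, at 2.75, 1.66 and 1.15 FPKM. col21a1 stood at 2.74, 2.04 and 2.26 FPKM from 43, 39 and 33 fragments, and its intervals included 1 at both doses.

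The 11 chains of other types that were counted had medians of -0.08 at 3 ng and 0.17 at 6 ng. At 3 ng 0 were past 2-fold, against 3.68% higher and 2.20% lower over all genes counted. At 6 ng 2 (18.2%) were higher, against 6.28%, and 0 were lower, against 4.53%. That 0 depended on the pseudocount. col28a1a had a 6 ng fold of 0.419 (0.321 to 0.543), and with a pseudocount of 0.1 FPKM it was past 2-fold lower, at -1.19. The median at 3 ng became 0.03 with like-length medians subtracted. Of the 6 FACIT members, 4 were above and 2 below the control at each dose. Of the anchoring and transmembrane chains of the epidermis, the type XVII member col17a1a was below the counting limit at 0.795, 0.570 and 0.358 FPKM. The anchoring fibril chain col7a1, without a symbol, stood at 23.9, 12.8 and 16.8 FPKM.

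Genes that modify collagen in the endoplasmic reticulum were mostly higher in both morphant libraries, unlike the chains themselves. Of 23 such genes counted, 3 were at least 2-fold higher at 3 ng and 6 at 6 ng, against 3.68% and 6.28% of all genes counted. At either dose 0 were lower, against 2.20% and 4.53%. The 23 genes had median differences of 0.52 and 0.81, beside 0.02 and 0.08 over all genes counted. Of the 23, 21 lay above the control at 3 ng and 22 at 6 ng. Over all 16429 genes counted, 8529 and 9208 did. Members and lists of this kind were picked with earlier results of these libraries known, so the direction is a description.

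serpinh1b, which encodes a collagen-specific chaperone (Hsp47), stood at 19.6, 294 and 312 FPKM, with folds of 15.0 (14.2 to 15.9) and 15.9 (15.0 to 16.9). Its paralog serpinh1a stood at 30.1, 94.5 and 105.9 FPKM, with folds of 3.14 (2.97 to 3.31) and 3.52 (3.33 to 3.72). No chain that entered the counts had a fold of this size, the highest being the 2.70 of col5a3a at 6 ng. Below the counting limit, col28a1b was at 4, 17 and 11 fragments, a fold of 3.49 (1.14 to 14.3) at 3 ng.

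Prolyl 4-hydroxylase stabilizes the collagen helix, and its catalytic subunit genes differed to different extents. p4ha2 stood at 12.1, 30.0 and 34.9 FPKM, with folds of 2.48 (2.20 to 2.80) and 2.89 (2.56 to 3.27), and p4ha1b at 4.39, 9.16 and 11.1 FPKM, with folds of 2.09 (1.84 to 2.37) and 2.53 (2.22 to 2.88). p4ha1a was within 2-fold at both doses, at 21.6, 23.8 and 32.3 FPKM, and p4ha3 was below the counting limit at 0.184, 0.135 and 0.154 FPKM, from 9, 8 and 7 fragments. crtap, part of the prolyl 3-hydroxylase complex, stood at 78.6, 127 and 154 FPKM, and ppib, a prolyl isomerase, at 476, 653 and 601 FPKM. The 2 members below the control at 3 ng were p3h2, at 8.50, 6.50 and 8.97 FPKM, and fkbp10b, at 32.5, 28.4 and 30.9 FPKM.

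Of 13 genes of procollagen secretion, 0 were past 2-fold on log2(FPKM + 1) at either dose. Over all genes counted, 3.68% were higher and 2.20% lower at 3 ng, and 6.28% and 4.53% at 6 ng. At such shares a list of this size may hold none. The medians of the 13 genes were 0.29 and 0.51. sec24d, a coat protein gene whose loss impairs collagen export in zebrafish, stood at 13.96, 19.8 and 28.0 FPKM. Its 6 ng fold was 2.01 (1.85 to 2.18), and with the pseudocount it was at 0.96, just within 2-fold. The coat protein genes sec13 and sec23a stood at 69.1, 99.9 and 99.9 FPKM and at 20.9, 26.6 and 29.96 FPKM.

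Genes acting outside the cell, read against the same shares, held few past 2-fold. Of 11 genes of propeptide removal and cross-linking counted, 0 were past 2-fold on log2(FPKM + 1) at 3 ng. At 6 ng 1 was lower, the procollagen protease gene adamts3, at 9.23, 6.05 and 2.50 FPKM. pcolce2b of this list, at 3.39, 1.91 and 1.30 FPKM, had a 6 ng fold of 0.382 (0.264 to 0.546). With the pseudocount it was at -0.93 and so not called. The list's medians were 0.07 and 0.27. Its most abundant members were the C-propeptide protease gene bmp1a, nearly level at 18.7, 18.8 and 21.2 FPKM, and the lysyl oxidase-like genes loxl2b, at 12.0, 12.7 and 18.4 FPKM, and loxl2a, at 11.6, 10.6 and 19.3 FPKM. Of 9 collagen receptor genes counted, 0 were past 2-fold on log2(FPKM + 1), with medians of -0.20 and 0.01. The integrin gene itga2.2, at 2.54, 0.862 and 1.50 FPKM, had a 3 ng fold of 0.340 (0.244 to 0.469). Only the pseudocount kept it within 2-fold there, at -0.93. The integrin beta 1 genes itgb1b and itgb1a stood at 50.0, 40.3 and 50.4 FPKM and at 20.7, 19.1 and 18.3 FPKM, and the collagen-binding kinase gene ddr1 at 17.1, 12.4 and 11.7 FPKM.

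**Figure D4:**
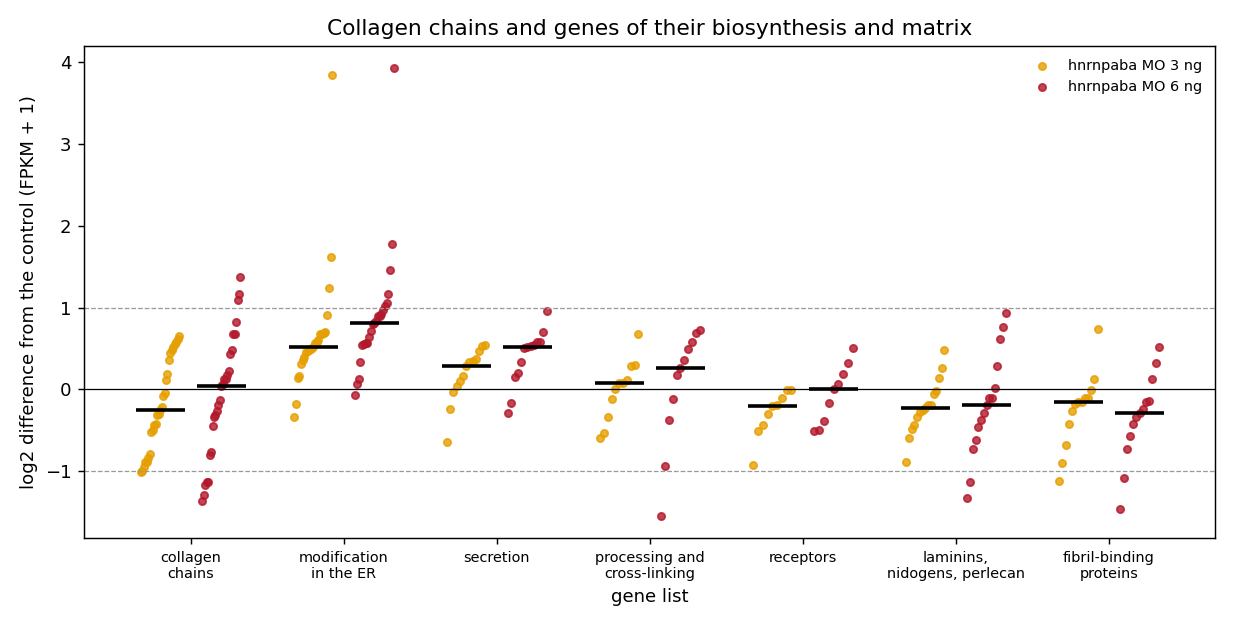
Log2 difference from the control on the scale of FPKM + 1 for the collagen chains and 6 gene lists, with 1 point per gene counted, at 3 ng and at 6 ng, black bars at the medians and dashed lines at 2-fold. The modification genes lie mostly above 0 with medians of 0.52 and 0.81, serpinh1b is the uppermost point at each dose, and the chains spread on both sides of 0.

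Other basement membrane genes lay on both sides of the control, as the type IV chains did. Of 15 laminin, nidogen, perlecan, agrin and SPARC genes counted, 0 were past 2-fold at 3 ng. The shares over all genes counted were 3.68% higher and 2.20% lower. At 6 ng 2 (13.3%) were lower, against 4.53%, and 0 were higher, against 6.28%. The 2 were the laminin beta genes lamb2l (8.61, 5.37 and 2.82 FPKM) and lamb4 (10.9, 5.43 and 4.44 FPKM). The 3 ng fold of lamb4 was 0.497 (0.448 to 0.552), within 2-fold only with the pseudocount, at -0.89. The medians of the 15 genes were -0.23 and -0.19. The most abundant, sparc, which encodes a collagen-binding glycoprotein, was level at 136, 131 and 137 FPKM, while the laminin genes lamc1 and lamb1a stood at 63.5, 76.2 and 108 FPKM and at 40.8, 45.1 and 62.8 FPKM.

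Of 13 genes of fibril-binding proteoglycans and related matrix proteins counted, 1 (7.69%) was 2-fold lower at 3 ng, against 2.20% of all genes counted. At 6 ng 2 (15.4%) were lower, against 4.53%. At the 2 doses 0 were higher, against 3.68% and 6.28%, and the medians were -0.15 and -0.29. lum, which encodes lumican, a regulator of fibril spacing, stood at 7.69, 2.98 and 3.10 FPKM, and fmoda, which encodes fibromodulin, at 48.0, 29.7 and 16.8 FPKM. matn4 stood at 108, 94.99 and 85.3 FPKM and dcn, which encodes decorin, at 42.3, 35.0 and 38.4 FPKM.

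Markers of other sources of collagen lay on both sides of the control in the morphant libraries, where col1a1b, col1a2 and the type VI chains were lower. Of 13 sclerotome and fibroblast markers counted, 0 were past 2-fold on log2(FPKM + 1) at 3 ng. The shares over all genes counted were 3.68% higher and 2.20% lower. At 6 ng 1 (7.69%), twist2, was higher, against 6.28%, and 0 were lower, against 4.53%. twist2 stood at 3.18, 6.89 and 8.12 FPKM, and its 3 ng fold of 2.16 (1.25 to 3.89) went uncalled only through the pseudocount. The summed level of the list was 118, 123 and 127 FPKM. Its most abundant members twist1a and prrx1a stood at 24.96, 35.1 and 30.9 FPKM and at 19.4, 22.4 and 26.3 FPKM. Others were highest in the control, to different extents. pdgfra, a receptor gene of mesenchyme, stood at 14.2, 7.42 and 8.18 FPKM, with folds of 0.523 (0.478 to 0.571) and 0.577 (0.525 to 0.633). foxf1 stood at 2.58, 1.39 and 1.17 FPKM and prrx1b at 6.81, 4.72 and 4.30 FPKM. The 6 ng fold of foxf1 was 0.455 (0.263 to 0.763), within 2-fold only with the pseudocount, at -0.72.

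Of 11 fin fold markers counted, 0 were past 2-fold at 3 ng, against 3.68% higher and 2.20% lower of all genes counted. At 6 ng 1 (9.09%), frem2a, was higher, against 6.28%, and 0 were lower, against 4.53%. frem2a stood at 9.93, 16.5 and 20.9 FPKM, and the summed level of the list was 118, 123 and 135 FPKM. fras1 stood at 17.9, 17.4 and 21.0 FPKM, and and2, which encodes a fin fold fibre protein, at 5.50, 5.83 and 2.74 FPKM, so members of this list also lay on both sides. The 6 ng fold of and2 was 0.498 (0.386 to 0.639), within 2-fold only with the pseudocount, at -0.80. Of 13 skeletal muscle markers, 1 (7.69%) was higher at 3 ng, against 3.68% of all genes counted, and 0 were lower, against 2.20%. At 6 ng 2 (15.4%) were higher, against 6.28%, and 1 (7.69%) was lower, against 4.53%. The summed level of the muscle list was 11576, 12165 and 10267 FPKM. acta1a stood at 335, 739 and 829 FPKM, myog at 4.68, 9.55 and 13.1 FPKM and mylpfb at 277, 230.4 and 128 FPKM. At 3 ng myog had a fold of 2.04 (1.81 to 2.31) and myod1 of 2.04 (1.86 to 2.24). With the pseudocount these genes were at 0.89 and 0.9991 and so not called. The most abundant of the muscle list, actc1b, stood at 4053, 4426 and 3609 FPKM, and mylpfa stood at 1793, 1548 and 1166 FPKM. The part of any of these cell types in the type I and type VI values was not tested.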

How the data were processed

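RNA-seq libraries of 3 pools of zebrafish embryos were used. Per the labels' protocols, total RNA was extracted with Trizol, libraries were sequenced on a BGISEQ-500 and reads were mapped to a zebrafish genome and its genes. The authors deposited 1 table of FPKM values. Aligner, counting tool, genome build and strandedness were not given in the sources used here. Because the control column names neither morpholino nor dose, it was taken as the control library, of which the series has 1. There were 0 unused columns of values.

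Library totals, gene model lengths and fragments were recovered from the steps of FPKM values as the shortest length giving whole fragments in all libraries. This succeeded for 99.99% of genes above 0. On simulated data of 979 genes, lengths were exact for 89.1%. That simulation took the recovered lengths and totals as true, so it cannot show whether the real lengths are right. Lengths of genes with few fragments may be too short. Recovered fragments served for intervals (Clopper-Pearson) and length bins only. No test was possible with 1 library per group.

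The 13 gene lists (6 of matrix and biosynthesis, 7 of cell type markers) held 200 symbols, of which 15 were not matched, and some are shared between lists. The members and lists were chosen with earlier results of these data known. Named chains were the 6 most abundant of each class, those past 2-fold, and neighbours on the chromosome. In each list the most abundant genes and at most 4 past 2-fold were named. Other genes were added after their values were seen. From the lists these were tbxta, foxa2, chrd, krt91, ppl, evpla, pdgfra, foxf1, prrx1b, and2, myod1, p4ha1a, p4ha3, p3h2, fkbp10b, itga2.2 and pcolce2b. The chains so added were col17a1a, col28a1a, col21a1, col24a1, col8a2, col12a1b and the remaining chains. Python 3.11.15, pandas 2.3.3 and scipy 1.17.1 were used. Alternatives were the pseudocount, the filter, 2 rescalings, subtraction of like-length medians and, added after seeing the data, inclusion of chains without a symbol.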

Additional observations from a re-analysis of the deposited data

Results flagged for a closer look

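For 4 chains the fold was on opposite sides of 1 at the 2 doses with both counting intervals excluding 1, and this difference was not tested, since both doses share the control and each is 1 library. col28a2a was at 0.801-fold the control at 3 ng and 1.04-fold at 6 ng. col11a1a was at 0.973-fold and 1.17-fold, col18a1a at 0.948-fold and 1.13-fold, and col5a1 at 0.858-fold and 1.03-fold. One of each chain's 2 log2 differences changed sign under 1 of 7 alternatives: to -0.03 for col28a2a at 6 ng, 0.06 for col11a1a at 3 ng, 0.03 for col18a1a at 3 ng and -0.04 for col5a1 at 6 ng.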

How the results depend on the processing

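No paired analysis was possible because each group has 1 library. The number of chains at least 2-fold lower at 3 ng was 0 with a pseudocount of 5 FPKM and 0 after subtracting like-length medians, instead of 2. At 6 ng it was 2 with a pseudocount of 5 FPKM, because the pseudocount shrinks low values, and 8 with the chains without a symbol included, instead of 5. The other 44 recomputed counts were within 1.5 times the reported one. No chain past 2-fold changed sign under any of the 7 alternatives. At 6 ng col1a2, col1a1b, col14a1a and col5a3a were past 2-fold under all 7, col6a1, col6a2 and col8a1a under 6, and col11a1b under 5. With chains without a symbol included, the median at 6 ng was -0.21 instead of 0.05. Subtracting like-length medians gave 779 genes higher and 905 lower over all genes counted at 6 ng. Of the genes called either way, 46.3% were then higher, instead of 58.1%. Chains with under 100 fragments in a library, such as col21a1 and col8a2, were limited by depth.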

Other observations

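Of 7 neural crest markers counted, 0 were past 2-fold at either dose. The shares over all genes counted were 3.68% higher and 2.20% lower at 3 ng, and 6.28% higher and 4.53% lower at 6 ng. At such shares, 0 of so few genes does not set these markers apart from other genes. Their summed level was 122, 151 and 171 FPKM in the control, 3 ng and 6 ng libraries. foxd3 stood at 29.4, 47.8 and 52.8 FPKM and tfap2a at 38.5, 36.9 and 41.2 FPKM. Of 5 cartilage regulators and matrix genes counted, 0 were past 2-fold, to be read against the same shares. The summed level of that list was 70.6, 65.0 and 71.6 FPKM. col2a1a, a gene of cartilage and notochord, was at 1.77-fold the control at 6 ng. sox9b stood at 18.2, 19.3 and 19.9 FPKM and sox5 at 20.6, 15.5 and 18.1 FPKM. runx2a and matn1 were listed at 0 in the control.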
